A study of Mus musculus with 6 samples.

Results

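Complement is a cascade of plasma proteases and membrane-bound regulators that marks microbes and damaged cells for removal. In the classical pathway the recognition molecule C1q activates the protease C1r, C1r activates C1s, and C1s cleaves C4 and C2 to build an enzyme that splits C3, after which later components can assemble a pore in the target membrane. Vessel walls are bathed in these proteins, and endothelial cells (EC) carry and secrete inhibitors that protect them from attack. Transcript levels of 8 such genes, C1ra, C1s, C4b, C3, Serping1, Cd55, Cd59a and Cd93, were compared between infant and young adult lung EC. They were taken by symbol from the 12623 genes of the RNA-seq table, and all 8 were measured and passed the filter on low values (12458 genes passed).

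The libraries came from C57BL/6N mice, 3 from infant and 3 from young adult animals, and each was described as an independent biological replicate, without a statement on how many animals it held. The labels name no transgene or treatment. Flow cytometry of digested lungs had kept cells positive for CD31 and CD34 that did not stain for PTPRC, LYVE1, PDPN or LY76. The question was how transcription differs between EC of a growing lung and quiescent EC.

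Values are RPKM, reads per kilobase of transcript scaled by the number of mapped reads. Being per length, they allow an approximate comparison between genes, which is less certain where a gene shares sequence with a near copy. They summed to between 362970 and 428155 per library over all transcript rows, and the number of reads in each library is unknown. Endothelial markers were present throughout (Pecam1 between 309.8 and 657.8 RPKM), but so were markers of other cells. The 9 measured fibroblast markers summed to 1130, 248.8 and 720.6 RPKM across the infant libraries and to 8.4, 20.7 and 18.1 RPKM across the young adult ones. Values are listed here and throughout for replicates 1, 2 and 3. Infant replicate 2 thus stood apart from the other infant libraries in this sum. Dcn and Lum were highest in infant replicate 2 (19.9 and 14.4 RPKM), and each other fibroblast marker was lowest there among infant libraries. Of these 9 genes 8 were called lower, including Col3a1 (99.4 to 482.5 RPKM in infant, 1.3 to 4.3 in young adult libraries) and Pdgfra (2.6 to 87.2 and 0.2 to 0.6 RPKM). The 8 mural markers differed in the same way, from 67.4 in infant replicate 2 to 234.9 in infant libraries and from 11.8 to 16.0 RPKM in young adult libraries, led by Acta2, and 7 of 8 were called lower. The 8 measured leukocyte markers summed to 316.9, 514.5 and 405.1 RPKM in infant and to 142.6, 309.8 and 555.7 RPKM in young adult libraries, led by Lyz2, and 2 of 8 were called lower, Ptprc among them (3.0 to 7.0 and 0.2 to 1.8 RPKM). The 7 epithelial markers summed to 6374.5, 11216.5 and 8326 RPKM in infant and to 1781.4, 4742.5 and 8270.8 RPKM in young adult libraries, led by the surfactant gene Sftpc (1450.9 to 4883.1 RPKM), and 2 of them were called lower. All 6 erythroid markers, led by Hba-a1, and the only measured mesothelial marker, Msln, were called lower. Lyve1, whose protein the sort selected against, was called higher (68.6 to 171.4 RPKM in infant, 252.9 to 396.4 in young adult libraries). Although the methods name female mice, 4 genes of the Y chromosome summed to between 42.2 and 47.0 RPKM in the infant libraries and were listed at 0 in each young adult library, so sex and age cannot be told apart. In these bulk samples fewer cells of a type and less RNA per cell cannot be told apart either.

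The genes moved in both directions (plot of RPKM by library). Of the 8 genes, 2 rose (C1ra and Cd93) and 3 fell (C1s, Serping1 and Cd59a) in young adult EC, at a limma adjusted p under 0.05 and a log2 fold change beyond 0.81. Over all genes tested, 3.33% were called higher and 8.1% lower. With the p threshold alone it was 6 of 8 genes, against 25.5% of all genes. Groups were free of overlap for 5 of the 8, the called ones, against 43.4% of all genes. The median log2 fold change of the 8 genes was -0.62, and that of all genes tested was -0.07. With libraries rescaled without their globin transcripts, which made up 3.41% to 23.5% of the infant and at most 0.487% of the young adult RPKM, the split changed to 1 higher and 4 lower.

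**Figure D1:**
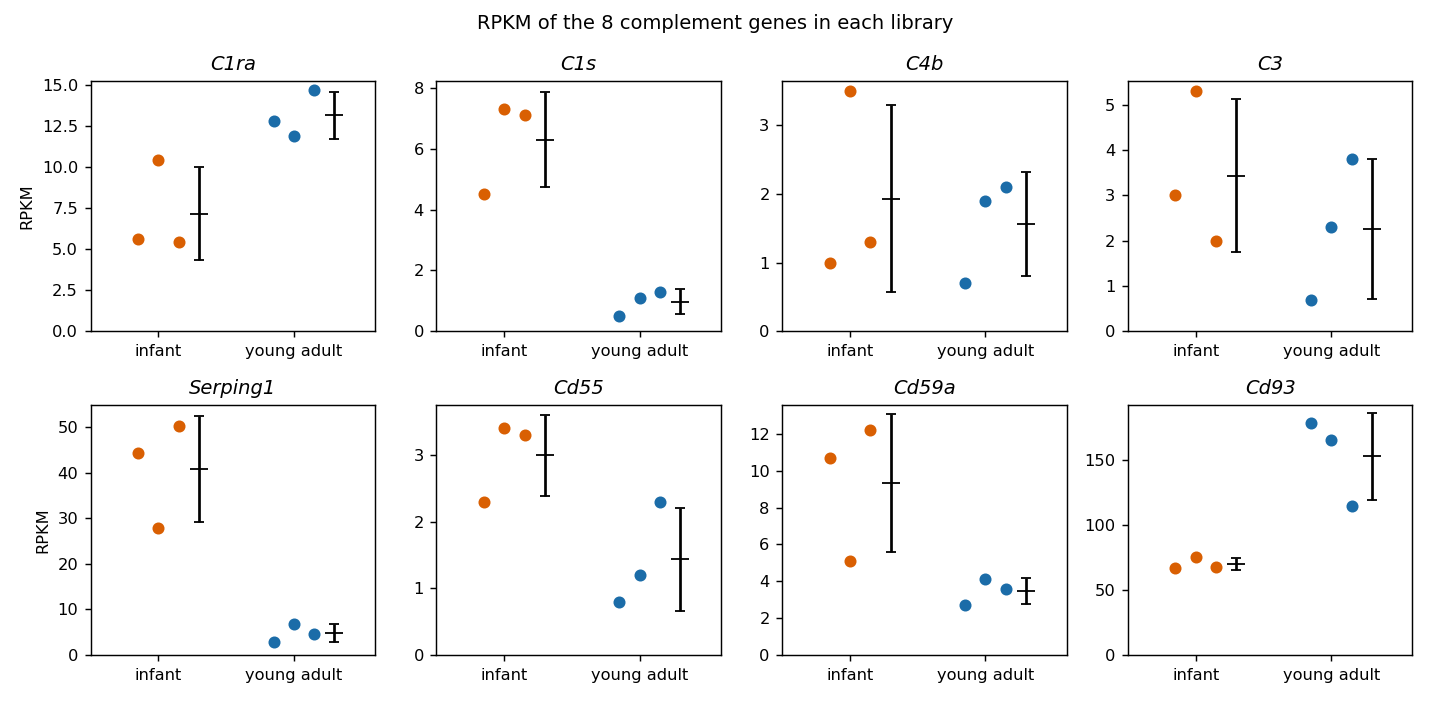
RPKM (linear axes from 0) of the 8 complement genes in 3 infant (orange) and 3 young adult (blue) libraries, with the mean and SD in black (n = 3 each). C1s and Serping1 dropped in all young adult libraries, whereas C1ra and Cd93 were higher in all of them, and the groups overlapped for C4b, C3 and Cd55.

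The proteases of C1 moved in opposite directions. C1ra encodes mouse C1r and measured 5.6, 10.4 and 5.4 RPKM in the infant libraries, against 12.8, 11.9 and 14.7 RPKM in the young adult ones. All young adult libraries lay above all infant libraries, but infant replicate 2 came close to them. The mean of C1ra was 7.13 ± 2.83 RPKM in infant and 13.1 ± 1.43 RPKM in young adult EC (SD, n = 3 for these and all means below), so C1ra rose by a ratio of 1.84, with a log2 fold change of 0.85 ± 0.22 (SE) on the log2(RPKM + 1) scale and a limma adjusted p of 0.0286. Leaving out any 1 library other than infant replicate 2 removed the call. In those 5 fits the log2 fold change lay between 0.70 and 0.91 and the adjusted p between 0.0794 and 0.098. Among infant libraries replicate 2 was highest in C1ra, lowest in the fibroblast sum (248.8 RPKM) and highest in the endothelial sum (4345.1 RPKM). It was also highest in the epithelial sum (11216.5 RPKM) and the leukocyte sum (514.5 RPKM, mostly Lyz2). The mural sum (67.4 RPKM) and the erythroid sum (9654 RPKM) were lowest there, whereas the fibroblast markers Dcn and Lum were highest. The part of these cells in the rise was not tested.

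C1s encodes the protease that C1r activates, and measured 4.5, 7.3 and 7.1 RPKM in the infant libraries, against 0.5, 1.1 and 1.3 RPKM in the young adult ones. Every infant library was well above every young adult library. C1s fell from 6.30 ± 1.56 to 0.967 ± 0.416 RPKM, 6.52-fold, with a log2 fold change of -1.89 ± 0.22 (SE, limma adjusted p 0.00197). Its call held in every fit without 1 library, with log2 fold changes from -2.08 to -1.71. Its size depended most on the pseudocount, from -2.64 at 0.1 to -0.91 at 5. Fibroblast markers were higher in the infant libraries too. Their sum was 1130 RPKM in infant replicate 1, where C1s was 4.5 RPKM, and 248.8 RPKM in infant replicate 2, where C1s was 7.3 RPKM. Dcn (7.6, 19.9 and 8.0 RPKM in infant libraries) and Lum (4.1, 14.4 and 4.7 RPKM) were highest in infant replicate 2, like C1s. The other fibroblast markers were lowest there. The part of fibroblasts in the fall of C1s was not tested. The other transcript row of C1s (NM_144938) gave nearly the same values, 4.4, 7.2, 7.0, 0.5, 1.1 and 1.3 RPKM. C1s shares 8.02% of its windows of 100 bases with the copy C1s2. The ratio of C1ra to C1s, examined after the values were seen, was 1.24, 1.42 and 0.761 in infant and 25.6, 10.8 and 11.3 in young adult libraries.

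Both genes lie side by side on chromosome 6 of GRCm38 (the coordinates of mm10), C1ra on the plus strand (chr6:124512621-124523440, 11 exons) and C1s, named C1s1 in RefSeq, on the minus strand (chr6:124530344-124542392, 12 exons), so their ends face each other. A near copy of C1ra, C1rb, follows at chr6:124570430-124581044. Of all windows of 100 bases in the C1ra transcript, 34.5% occurred unchanged in transcripts of C1rb and 0% in those of C1s. The value of C1ra is therefore uncertain to the extent that reads were divided between both copies. C1rb measured 2.7, 4.9 and 2.6 RPKM in the infant libraries, against 5.9, 5.9 and 7.1 RPKM in the young adult ones. That was between 0.461 and 0.496 times the value of C1ra in each of the 6 libraries. C1rb by itself was not called (log2 fold change 0.76 ± 0.20, limma adjusted p 0.0276). It was under the fold threshold on the log2(RPKM + 1) scale, whereas its mean RPKM rose by a ratio of 1.85. Summed with C1ra as 1 feature, an alternative chosen after seeing the data, C1r transcripts gave a log2 fold change of 0.88 (limma adjusted p 0.0273).

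To show sequence that the copies share near the start of transcription, the 250 bases ahead of a RefSeq transcript start (GRCm38.p6) are given. They run 5′ to 3′ on the strand of each gene. Capitals mark the best local alignment of C1ra with C1rb, 99 columns with 93.9% identity.
C1ra (chr6:124512371-124512620, plus strand): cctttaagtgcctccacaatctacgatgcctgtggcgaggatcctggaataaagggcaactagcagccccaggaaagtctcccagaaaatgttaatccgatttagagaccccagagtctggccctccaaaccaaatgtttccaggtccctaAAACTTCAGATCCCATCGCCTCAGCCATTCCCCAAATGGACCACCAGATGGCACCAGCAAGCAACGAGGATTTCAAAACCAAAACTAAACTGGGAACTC
C1rb (chr6:124570180-124570429, plus strand): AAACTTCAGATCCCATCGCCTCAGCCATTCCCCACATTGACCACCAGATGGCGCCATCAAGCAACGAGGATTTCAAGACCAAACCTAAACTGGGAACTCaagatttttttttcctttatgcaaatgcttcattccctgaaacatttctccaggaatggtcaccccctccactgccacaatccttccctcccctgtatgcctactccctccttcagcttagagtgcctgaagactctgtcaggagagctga
C1s (chr6:124542360-124542609, minus strand): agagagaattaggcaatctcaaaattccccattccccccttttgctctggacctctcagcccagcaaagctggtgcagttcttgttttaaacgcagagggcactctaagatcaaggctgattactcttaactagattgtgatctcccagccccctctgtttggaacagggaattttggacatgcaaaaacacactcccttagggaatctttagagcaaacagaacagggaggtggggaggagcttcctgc
In C1ra the shared stretch ended at the base ahead of the start, and in C1rb it lay 250 to 152 bases ahead of it, at the far end of the window. It thus met an edge of both windows, so its full length cannot be read from them. C1s shared no alignment over 9 bases with either. The window of C1s belongs to the outermost transcript start held here, which lies inside the span of the gene given above, so part of it falls within that span. Windows were held for 5 of the 8 genes.

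**Figure D2:**
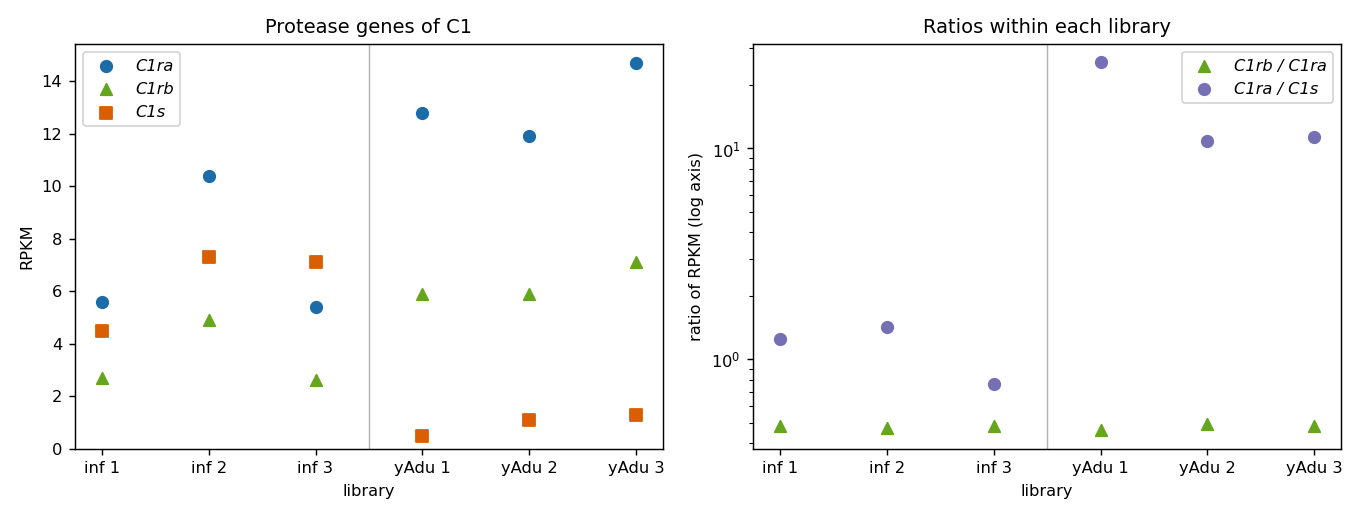
Left, RPKM of C1ra, its near copy C1rb and C1s in each library (linear axis). Right, ratios of RPKM within each library (log axis). C1rb stayed between 0.461 and 0.496 times C1ra, whereas the ratio of C1ra to C1s was at most 1.42 in infant and at least 10.8 in young adult libraries.

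C4b and C3, which act after these proteases in the classical pathway, were low and did not pass the test. C2, the other substrate of C1s, is given with the later components below. C4b (chr17:34728139-34743902, minus strand) encodes component C4 and measured 1.0, 3.5 and 1.3 RPKM in the infant libraries, against 0.7, 1.9 and 2.1 RPKM in the young adult ones. The groups overlapped, with a log2 fold change of -0.15 and a 95% interval from -0.94 to 0.65 (limma adjusted p 0.782). Its sign turned under quantile normalization (0.19), on leaving out infant replicate 2 (0.21) or young adult replicate 1 (0.13). C4b also shares 16.5% of its windows of 100 bases with C4a, so its value is uncertain.

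C3 (chr17:57203967-57228136, minus strand, 41 exons) encodes the component on which all complement pathways converge. It measured 3.0, 5.3 and 2.0 RPKM in the infant libraries, against 0.7, 2.3 and 3.8 RPKM in the young adult ones, and the groups overlapped. Its log2 fold change was -0.50 with a 95% interval from -1.42 to 0.43 (limma adjusted p 0.386), so a change of either sign remained within the error. Without young adult replicate 1, the lowest library, it was -0.09. Among the young adult libraries, replicate 1 was lowest and replicate 3 highest for C3, the epithelial sum (1781.4 and 8270.8 RPKM) and the leukocyte sum (142.6 and 555.7 RPKM). Among the infant libraries, replicate 2 was highest in all 3. The leukocyte sum was mostly Lyz2 there (467.1 of 514.5 RPKM). Each other measured leukocyte marker was highest in infant replicate 3, such as Laptm5 (11.6, 14.7 and 20.8 RPKM in infant libraries). The part of epithelial cells and leukocytes in the level of C3 was not tested.

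Among the regulators, the largest change was that of Serping1 (chr2:84765360-84775444, minus strand, 8 exons). It encodes C1 inhibitor, a serpin that blocks C1r and C1s and also restrains plasma kallikrein. Serping1 measured 44.4, 27.9 and 50.3 RPKM in the infant libraries, against 2.9, 6.9 and 4.7 RPKM in the young adult ones. The groups lay far apart. Serping1 fell from 40.9 ± 11.6 to 4.83 ± 2.0 RPKM, 8.46-fold, with a log2 fold change of -2.86 ± 0.29 (SE, limma adjusted p 0.00137). It was called in every fit without 1 library, with log2 fold changes from -3.11 to -2.60, and in infant libraries it was highest after Cd93 among the 8 genes. Fibroblast markers were higher in the same infant libraries. Their sum was lowest among these in infant replicate 2 (248.8 RPKM), where Serping1 was also lowest, whereas Dcn and Lum were highest there. The part of fibroblasts in the fall was not tested. Without infant replicate 2 the log2 fold change of Serping1 was -3.11.

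Cd55 and Cd59a encode regulators that are held on the cell surface by a lipid anchor. Cd59a (chr2:104095753-104115410, plus strand, 4 exons) encodes a protein that stops the assembly of the membrane pore. It measured 10.7, 5.1 and 12.2 RPKM in the infant libraries, against 2.7, 4.1 and 3.6 RPKM in the young adult ones. Infant replicate 2 lay near the young adult libraries, from which the other infant libraries were well apart. Cd59a fell from 9.33 ± 3.74 to 3.47 ± 0.709 RPKM, 2.69-fold, with a log2 fold change of -1.15 ± 0.28 (SE, limma adjusted p 0.024). Its call, too, held without infant replicate 2 and in no other fit that left out a library, with log2 fold changes from -1.25 to -0.93 and adjusted p between 0.0622 and 0.0893 in those 5. Infant replicate 2 was also lowest in the fibroblast sum (248.8 RPKM), the mural sum (67.4 RPKM) and the erythroid sum (9654 RPKM) among infant libraries, whereas Dcn and Lum were highest there. The part of these cells in the fall of Cd59a was not tested. The other row of Cd59a (NM_001111060) was close to it, with 10.0, 4.8 and 11.4 RPKM in infant libraries. The near copy Cd59b shares 0.314% of the windows of 100 bases.

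Cd55 (chr1:130429798-130465009, minus strand, 10 exons) encodes decay-accelerating factor, which takes apart the enzymes that split C3. It measured 2.3, 3.4 and 3.3 RPKM in the infant libraries, against 0.8, 1.2 and 2.3 RPKM in the young adult ones. The groups touched, as infant replicate 1 and young adult replicate 3 had the same value. Its log2 fold change was -0.75 ± 0.23 (SE, limma adjusted p 0.0492), under the fold threshold on the log2(RPKM + 1) scale, whereas its mean RPKM fell 2.09-fold. Without young adult replicate 3 Cd55 was called (-1.0, limma adjusted p 0.0214). Over all alternatives its adjusted p lay between 0.0214 and 0.152. Cd55 shares 6.86% of its windows of 100 bases with the copy Cd55b. C1s and Cd55 each overlap an antisense gene in the GENCODE annotation (Gm16567 and Gm16083), and without strand in the counting, which was not stated, reads of both cannot be told apart.

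Cd93 (chr2:148436651-148443535, minus strand, 2 exons) encodes a membrane lectin of EC that was once described as a receptor for C1q and is now known for adhesion of EC to matrix. It was the highest of the 8 genes in every library. Cd93 measured 66.5, 75.3 and 67.4 RPKM in the infant libraries, against 177.9, 165.0 and 114.4 RPKM in the young adult ones. Infant libraries lay close together, and young adult replicate 3 was nearest to them. Cd93 rose from 69.7 ± 4.84 to 152.4 ± 33.6 RPKM, a ratio of 2.19, with a log2 fold change of 1.09 ± 0.17 (SE, limma adjusted p 0.00584). It was called in every fit without 1 library, with log2 fold changes from 0.97 to 1.29. The summed endothelial markers were 2947.2 to 4345.1 RPKM in infant and 4764.2 to 5120 RPKM in young adult libraries. Their median log2 fold change was 0.30, with 1 of 10 called, Tek (1.25). The part of endothelial content in the rise of Cd93 was not tested.

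In infant EC the order of mean levels per length was Cd93, Serping1, Cd59a, C1ra, C1s, C3, Cd55 and C4b, where each gene from Cd59a onward overlapped with its neighbour. In young adult EC it was Cd93, C1ra, Serping1, Cd59a, C3, C4b, Cd55 and C1s. Cd93 and C1ra stood clear of all others there, and each further gene overlapped with its neighbour. By mean RPKM C1s was thus last in young adult EC, and C1ra, whose value is uncertain through its copy C1rb, had passed Serping1.

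The other genes of the pathway were examined from a list of 53, of which 23 were measured. Of these 23 genes, 3 rose and 4 fell, against 3.33% called higher and 8.1% called lower of all genes tested, and their median log2 fold change was -0.38 against -0.07 for all genes tested (plot of fold changes). Of those that fell, Colec10 and Colec11 reached the filter of 1 RPKM in infant libraries only, which fixed their direction. When genes needed a mean RPKM of at least 1, 1 was called lower. Among 6 further regulators, clusterin (Clu), a secreted inhibitor of the membrane pore, had the largest rise. It measured 88.2, 182.9 and 88.7 RPKM in the infant libraries, against 343.1, 368.2 and 483.2 RPKM in the young adult ones, without overlap. Clu rose 3.32-fold, with a log2 fold change of 1.80 ± 0.29 (SE, limma adjusted p 0.00651), and was called under each alternative. Thrombomodulin (Thbd), a membrane receptor for thrombin that also curbs complement, rose from 296.5 ± 68.4 to 522.9 ± 8.11 RPKM (limma adjusted p 0.0162), which was called in 1 of the 6 fits that left out a library, that without infant replicate 2. Vtn encodes vitronectin, which binds the terminal components, and fell from 2.93 ± 0.808 to 0.767 ± 0.252 RPKM (log2 fold change -1.14, limma adjusted p 0.00712). Cr1l, which encodes the broad membrane inhibitor Crry, measured 43.7, 69.6 and 46.6 RPKM in the infant libraries, against 71.9, 70.4 and 74.8 RPKM in the young adult ones (log2 fold change 0.46, 95% interval 0.06 to 0.87, limma adjusted p 0.0862). The infant library nearest to the young adult level was again replicate 2. Summed, the 6 regulators outside the 8 genes made up 400 to 641.8 RPKM in infant and 955.1 to 1081.5 RPKM in young adult libraries, led by Thbd and Clu.

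**Figure D3:**
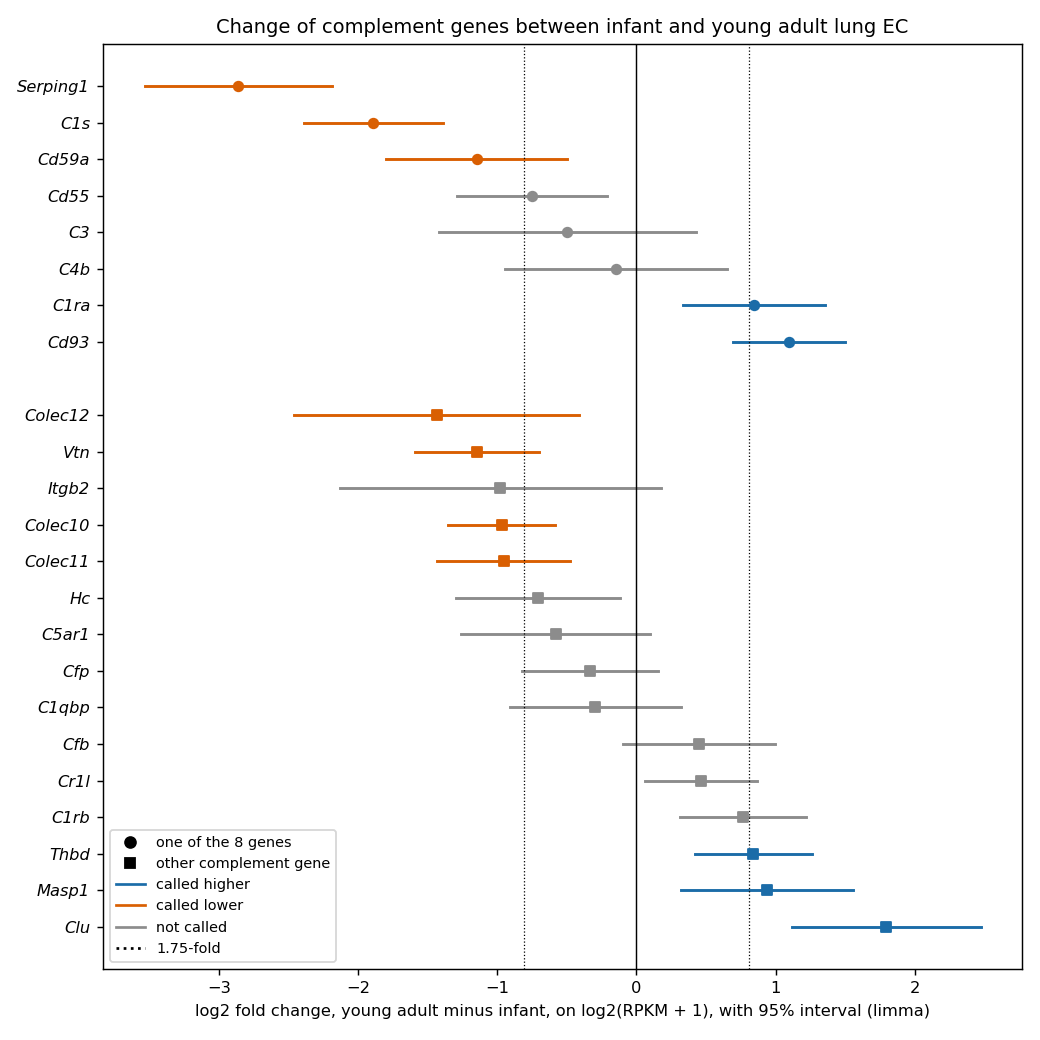
Log2 fold change (young adult minus infant, on log2(RPKM + 1)) with its 95% interval from limma for the 8 genes (circles) and, of the other complement genes, those called and the 3 with the highest mean RPKM in each role (squares), with the fold threshold dotted. Clu (1.80) and Cd93 (1.09) lay furthest to the right, and Serping1 (-2.86) and C1s (-1.89) furthest to the left.

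Among 7 further recognition and protease genes, Masp1, a protease of the lectin pathway, rose from 0.80 ± 0.693 to 2.33 ± 0.603 RPKM (log2 fold change 0.94, limma adjusted p 0.0383), which likewise held in 1 of the 6 fits, that without infant replicate 2. The collectin genes Colec10, Colec11 and Colec12, which encode sugar-binding proteins, fell, with log2 fold changes of -0.97, -0.95 and -1.44. Colec12 measured 13.4, 2.7 and 9.6 RPKM in the infant libraries, against 2.3, 2.2 and 1.7 RPKM in the young adult ones and lay just under the adjusted p threshold (0.0486), and it was not called under 9 of 13 alternatives that kept all libraries, nor without any 1 library other than infant replicate 2. Colec10 and Colec11 were at most 1.8 RPKM in each library, and Colec11 was called only in the fits without infant replicate 2 or young adult replicate 3 among those that left out 1. C1qb, a chain of C1q that was also named after its values were seen, was at most 2.7 RPKM in each library (log2 fold change -0.38, limma adjusted p 0.292).

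Of 6 later and alternative pathway genes 0 were called (limma), and 1, C2, had an adjusted p under 0.05. At an unadjusted p under 0.05 there were 2. C2, named after its values were seen, measured 1.1, 1.0 and 0.8 RPKM in the infant libraries, against 0.1, 0.3 and 0.0 RPKM in the young adult ones. On the log2(RPKM + 1) scale it was just under the fold threshold (log2 fold change -0.80, limma adjusted p 0.0135), whereas its mean RPKM fell 7.25-fold. C2, too, reached the filter of 1 RPKM in infant libraries only, which fixed its direction. Hc, which encodes component C5, was the highest of these 6 genes, with 16.2, 15 and 13.0 RPKM in the infant libraries, against 5.2, 10.0 and 12.0 RPKM in the young adult ones (log2 fold change -0.71, limma adjusted p 0.0783). Cfp, which encodes properdin, and Cfb, which encodes factor B, gave -0.33 and 0.45 (limma adjusted p 0.27 and 0.193). Of 4 receptor genes 0 were called (limma, 0 at an unadjusted p under 0.05). Itgb2, a chain of the receptors for cleaved C3 on leukocytes, measured 6.2, 7.9 and 9.9 RPKM in the infant libraries, against 1.0, 3.7 and 8.7 RPKM in the young adult ones (limma adjusted p 0.181). C1qbp and the receptor gene C5ar1 gave log2 fold changes of -0.30 and -0.58.

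To place each of the 8 genes among the rest of the transcriptome, the genes with the closest profile over the 6 libraries were listed by the root mean square distance of log2(RPKM + 1), each centred on its mean, among genes with a mean of at least 5 RPKM. These are descriptions over 6 libraries that share the age difference. C3 was closest to Sftpd (0.18) and Sftpa1 (0.20), which encode surfactant proteins of the airspace epithelium, and to Chi3l1 (0.21). Sftpd measured 31.6, 56.2 and 30.6 RPKM in the infant libraries, against 12.1, 29.6 and 51.4 RPKM in the young adult ones, and so had the lowest and the highest young adult library in common with C3. Serping1 was closest to Ndrg2 (0.13), Mfap5 (0.13), which encodes a microfibril protein and is on the list of fibroblast markers, and Dpt (0.23), which encodes the matrix protein dermatopontin. C1s was closest to Hsd11b1 (0.21), Gucy1b3 (0.23) and Pcdh18 (0.25).

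C1ra was closest to Lgals3bp (0.05), which encodes a secreted glycoprotein and measured 47.9, 92.3 and 49.1 RPKM in the infant libraries, against 104.6, 102.4 and 124.8 RPKM in the young adult ones, followed by Phf11c (0.07) and AI413582 (0.07). Cd93 was closest to Abcb1a (0.04), which encodes a drug efflux pump, with 11.2, 12.4 and 11.8 RPKM in the infant libraries, against 31.7, 30.4 and 19.9 RPKM in the young adult ones, then to Sft2d2 (0.12) and Rab27a (0.13). Cd59a was closest to Septin9 (0.13), Cd44 (0.14) and Kif20a (0.16), Cd55 to Lrrn3 (0.11), Lcn2 (0.12) and Dram1 (0.13), and C4b to Gadd45g (0.16), Tppp3 (0.19) and Mgll (0.20). Between the 8 genes themselves, the closest profiles were those of C3 and C4b (0.32) and of C1ra and Cd93 (0.37), and the furthest were those of Serping1 and Cd93 (2.04). C1ra and C1s were 1.40 apart.

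**Figure D4:**
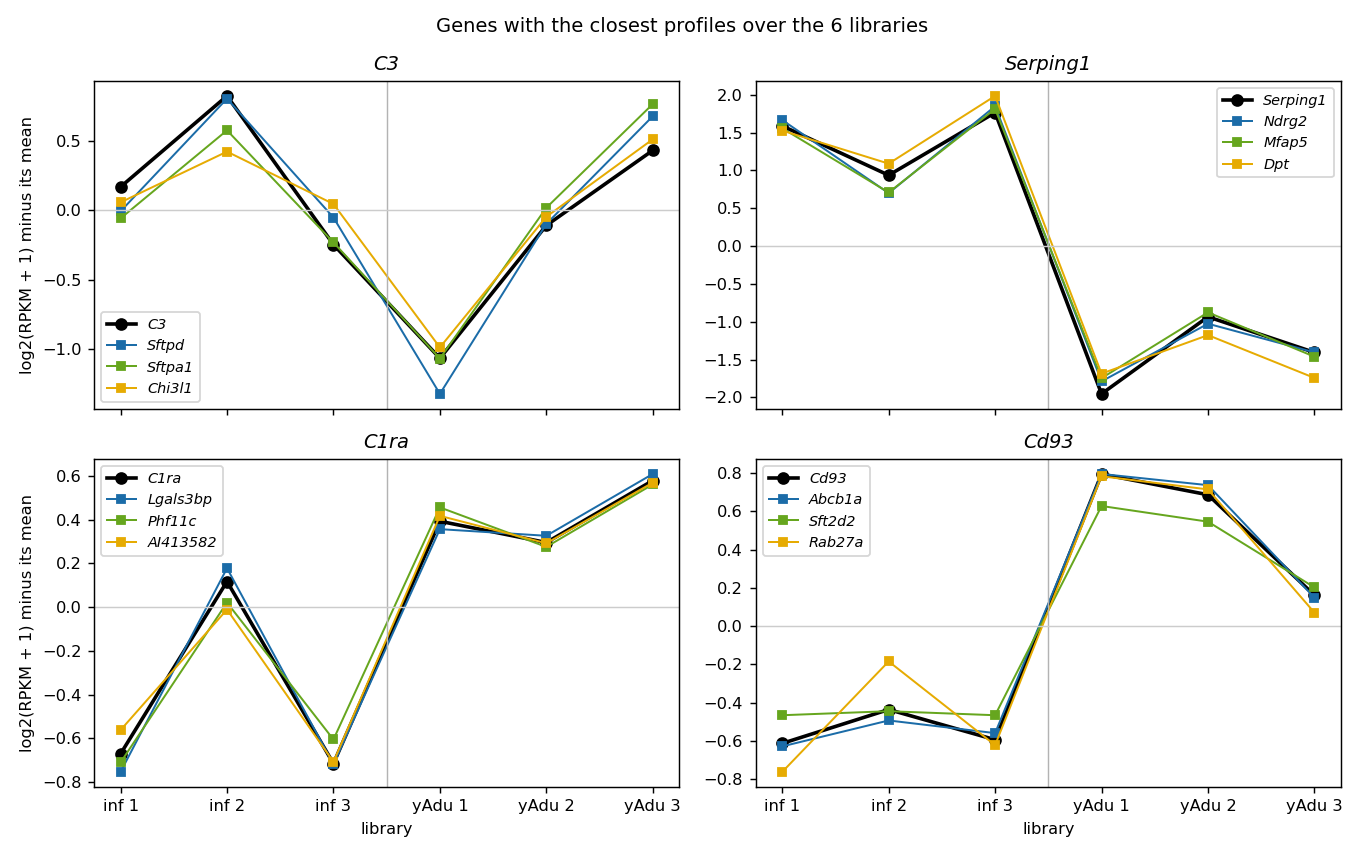
log2(RPKM + 1) minus its mean over the 6 libraries (1 to 3 infant, then 1 to 3 young adult) for C3, Serping1, C1ra and Cd93 (black) and the 3 genes with the closest profile (colours). Lines only guide the eye. C3 and its surfactant neighbours were lowest in young adult replicate 1, Serping1 and its neighbours dropped in all young adult libraries, and C1ra and Cd93 were higher in all of them.

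The fold change of each gene was recomputed with other pseudocounts, filters, scalings and variance models and without each library (plot of alternatives). C1s, Serping1 and Cd93 kept their call under each of the 19 alternatives. C1ra and Cd59a kept their sign under all of them but not their call. C4b alone of the 8 changed sign.

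**Figure D5:**
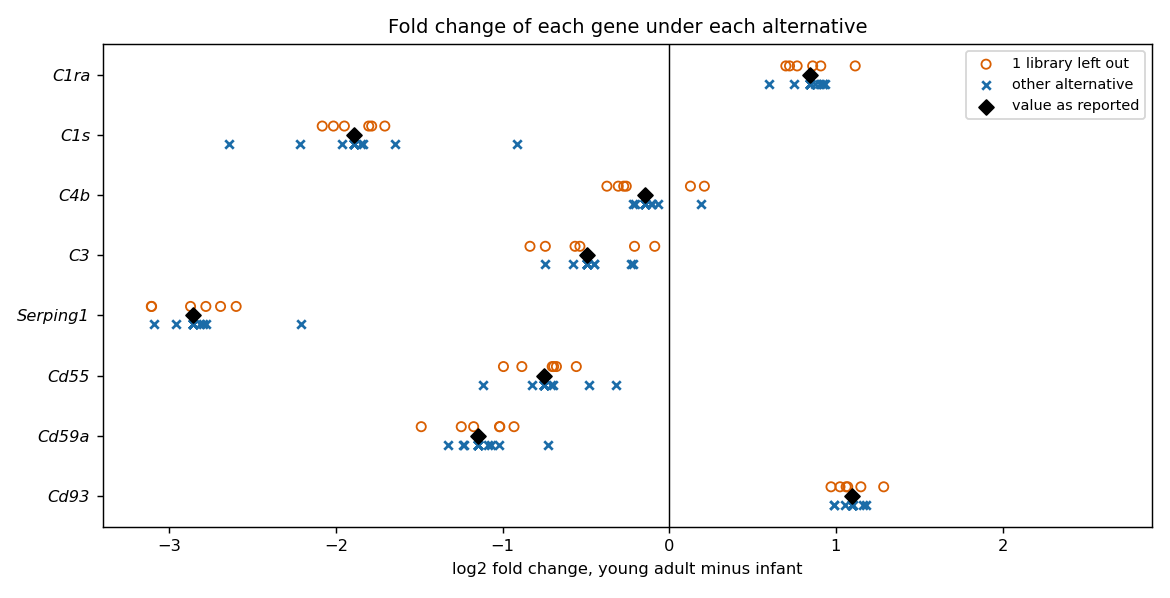
Log2 fold change (young adult minus infant) of each of the 8 genes as reported (black), with 1 library left out (orange circles) and under the other alternatives (blue crosses). C1s, Serping1 and Cd59a stayed left of 0 and C1ra and Cd93 right of it, whereas the values of C4b lay on both sides.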

How the data were processed

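RNA-seq was performed by the authors on RNA from sorted lung EC (PicoPure extraction, SMARTer Ultra Low amplification, which primes on poly(A), paired ends on a HiSeq2000). Per the methods and labels, the authors aligned reads to mm10 with STAR and ran DESeq2 on the RefSeq annotation. Versions, and the program that computed RPKM, are not given in the sources used here. The deposited values are the authors' RPKM per RefSeq transcript, rounded to 1 decimal (17241 rows). They are not counts. The methods give only an average coverage, so the depth of each library and its counting error are unknown.

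Each of 12623 genes was represented by its row of highest mean RPKM. Values were fitted as log2(RPKM + 1) with limma 3.58.1 (R 4.3.3, intensity trend, age group as the only term, Benjamini-Hochberg adjustment) over the 12458 genes that reached an RPKM of 1 in at least 1 library. Genes were called at an adjusted p under 0.05 and a log2 fold change beyond 0.81, the fold threshold of the study. That threshold was applied on the log2(RPKM + 1) scale, where a low gene can miss it although its mean RPKM differs by more. The pseudocount understates fold changes of low genes. The fit was tested on simulated data. The 8 genes and all lists were chosen with earlier results of these data known. Named genes are the 8, called genes and the 3 highest of each role among other complement genes, and the 3 closest profiles of each. Upstream sequences (each ahead of a transcript start) are from RefSeq (GRCm38.p6), aligned with Biopython 1.88. Gene positions are from RefSeq, and transcripts and exons are from GENCODE. Alternatives cover pseudocounts, filters, scalings, variance models, a replicate block and each library left out, and 1, the sum of C1ra and C1rb, was chosen after seeing the data. Of the other complement genes, 1 that was tested and not called is counted but not reported here. P-values set the group difference against the spread between these libraries, with the variance of each gene moderated towards an intensity trend over all genes.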

Additional observations from a re-analysis of the deposited data

How the results depend on the processing

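Under 19 alternatives C1s, Serping1, Cd93 and Clu kept their call and C3 was never called. The 2 genes called higher became 1 with a pseudocount of 5, with libraries rescaled without globin genes and with the replicate number as a block, and were 1 to 2 without 1 library. In each of these C1ra lost its call (without 1 library, in all but the fit without infant replicate 2), with log2 fold changes of 0.60 (pseudocount 5), 0.75 (rescaled without globin genes) and 0.85 (replicate block, adjusted p 0.0551), and 0.70 to 1.12 without 1 library. Cd59a lost its call with a pseudocount of 5 (-0.73), and gave -1.49 to -0.93 without 1 library. Cd55 was called when rescaled without globin genes (-0.83), and gave -1.0 to -0.56 without 1 library. C4b was reversed under quantile normalization (0.19), and gave -0.37 to 0.21 without 1 library. The number of the 8 genes called lower was 2 to 4. Other complement genes called higher were 1 to 4 without 1 library. With all libraries kept, Thbd was not called under quantile normalization (0.67) and rescaled without globin genes (0.73), Masp1 (0.34) and Vtn (-0.46) with a pseudocount of 5, and Colec10 and Colec11 with a pseudocount of 5 (-0.30 and -0.27) and under quantile normalization (-0.54 and -0.52). Colec12 was not called in 9 of 13. Those called lower were 0 with a pseudocount of 5 (limma, 6 at an unadjusted p under 0.05), 1 when genes needed a mean RPKM of 1 and 1 under quantile normalization, and 2 to 5 without 1 library.

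Replicate numbers did not pair the libraries: deviations of same-numbered libraries from their group means correlated at 0.03, -0.11 and -0.02, and 1 of 6 libraries correlated best with its own number. The block moved the calls over all genes from 1424 to 1371. The all-gene median was -0.07 as reported and 0.04 after quantile normalization. Over all genes, calls were 1957 with a pseudocount of 0.1 and 578 with a pseudocount of 5. They were 926, 1874 and 949 without infant replicates 1, 2 and 3, and 846, 867 and 1226 without young adult replicates 1, 2 and 3. Leaving out infant replicate 2 thus raised the calls over all genes too, from 1424 to 1874. The depth of each library is unknown, and genes under about 1 RPKM, such as C1s in young adult EC, carry a rounding step of 0.1.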
